A study of Homo sapiens with 6 samples.

Results

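The minichromosome maintenance (MCM) genes encode the motor of DNA replication. MCM2 to MCM7 form the ring that is loaded onto origins during G1 and that, once joined by CDC45 and the GINS complex, unwinds DNA ahead of the replication fork as the CMG helicase. MCM8 and MCM9 are paralogues that form a separate helicase used in homologous recombination and fork repair. MCM10, which shares the name but not the ATPase fold, helps to turn the loaded ring into an active helicase. Cleavage and polyadenylation set the 3′ end of the mRNAs of these genes: the pre-mRNA is cut a short distance after a polyadenylation signal (PAS), most often AATAAA, and a poly(A) tail is added at the cut. When a site inside an intron is used, the transcript is truncated.

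The poly(A) peaks of the 9 genes MCM2 to MCM10 were taken from 1 list of peaks. A peak was assigned to a gene when its summit lay in the annotated gene body or within 4000 bp past the gene's 3′ end, a rule that uses no measured value. The rule found 91 of the 200023 peaks of the list. Of these, 69 had −log10 q of at least 5 and 22 did not. The study used this cutoff, with further limits on reads and on change, for peaks specific to DMSO or THZ531. It also removed peaks that had a genomic stretch of A and no PAS motif. That removal was not made here, and would leave 68 of the 69. All counts and values below are for the 69, out of 138552 such peaks in the list, unless stated otherwise.

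The libraries were poly(A) 3′-seq of IMR-32, a human neuroblastoma cell line, made with a kit whose reads begin at the junction of transcript and poly(A) tail. There were 6 libraries from biological duplicates of 3 groups: DMSO (the solvent, 2 libraries), THZ531 at 400 nM for 2 h (2 libraries) and THZ531 at 400 nM for 6 h (2 libraries). THZ531 binds CDK12 and CDK13, kinases of the elongating polymerase, covalently and inhibits both, and the study asked where transcripts end when these kinases are inhibited. The authors merged the samples before they called peaks (assumed here to mean these 6 libraries), so the list holds no value for a library. No value below therefore compares DMSO with THZ531, none has a replicate error, and the depth of each library is unknown. The list also gives no strand.

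The height of a peak is given as reads at the summit, the pileup that was solved from the deposited fold enrichment and −log10 p. The peak caller by default keeps 1 read per position and strand, so this value counts distinct read starts, levels off in strong peaks, and is not an expression level. All coordinates are GRCh38. The 3′ edge of a peak, the side nearest the 3′ end of the transcript, lies where the pileup crossed the caller's threshold, close to where reads began. Each peak was given a class by its summit: transcript end (200 bp before to 600 bp past an annotated end of any transcript of the gene), exon, intron, or past the 3′ end (further past the gene's end).

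The cell label was checked first. All 11 neuroblastoma markers examined had a transcript-end peak, with 19 to 123 reads at the tallest (median 67), among them PHOX2A, a noradrenergic lineage factor, with 123 reads and MYCN with 100. Of 7 markers of other cell types, 3 had a transcript-end peak (COL1A1 with 15 reads, GFAP with 11 and EPCAM with 7), and PTPRC, ALB, KRT5 and PECAM1 had none.

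All 9 MCM genes had a transcript-end peak, against 64% of 20046 protein-coding genes. The 69 peaks divided into 19 at transcript ends, 13 in exons (7 of them coding), 35 in introns and 2 past the 3′ end. The median height was 22 reads at transcript ends, 22 in exons and 19 in introns, whereas the medians over all protein-coding genes were 19, 17 and 12. Peaks were 100 to 673 bp wide.

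**Figure D1:**
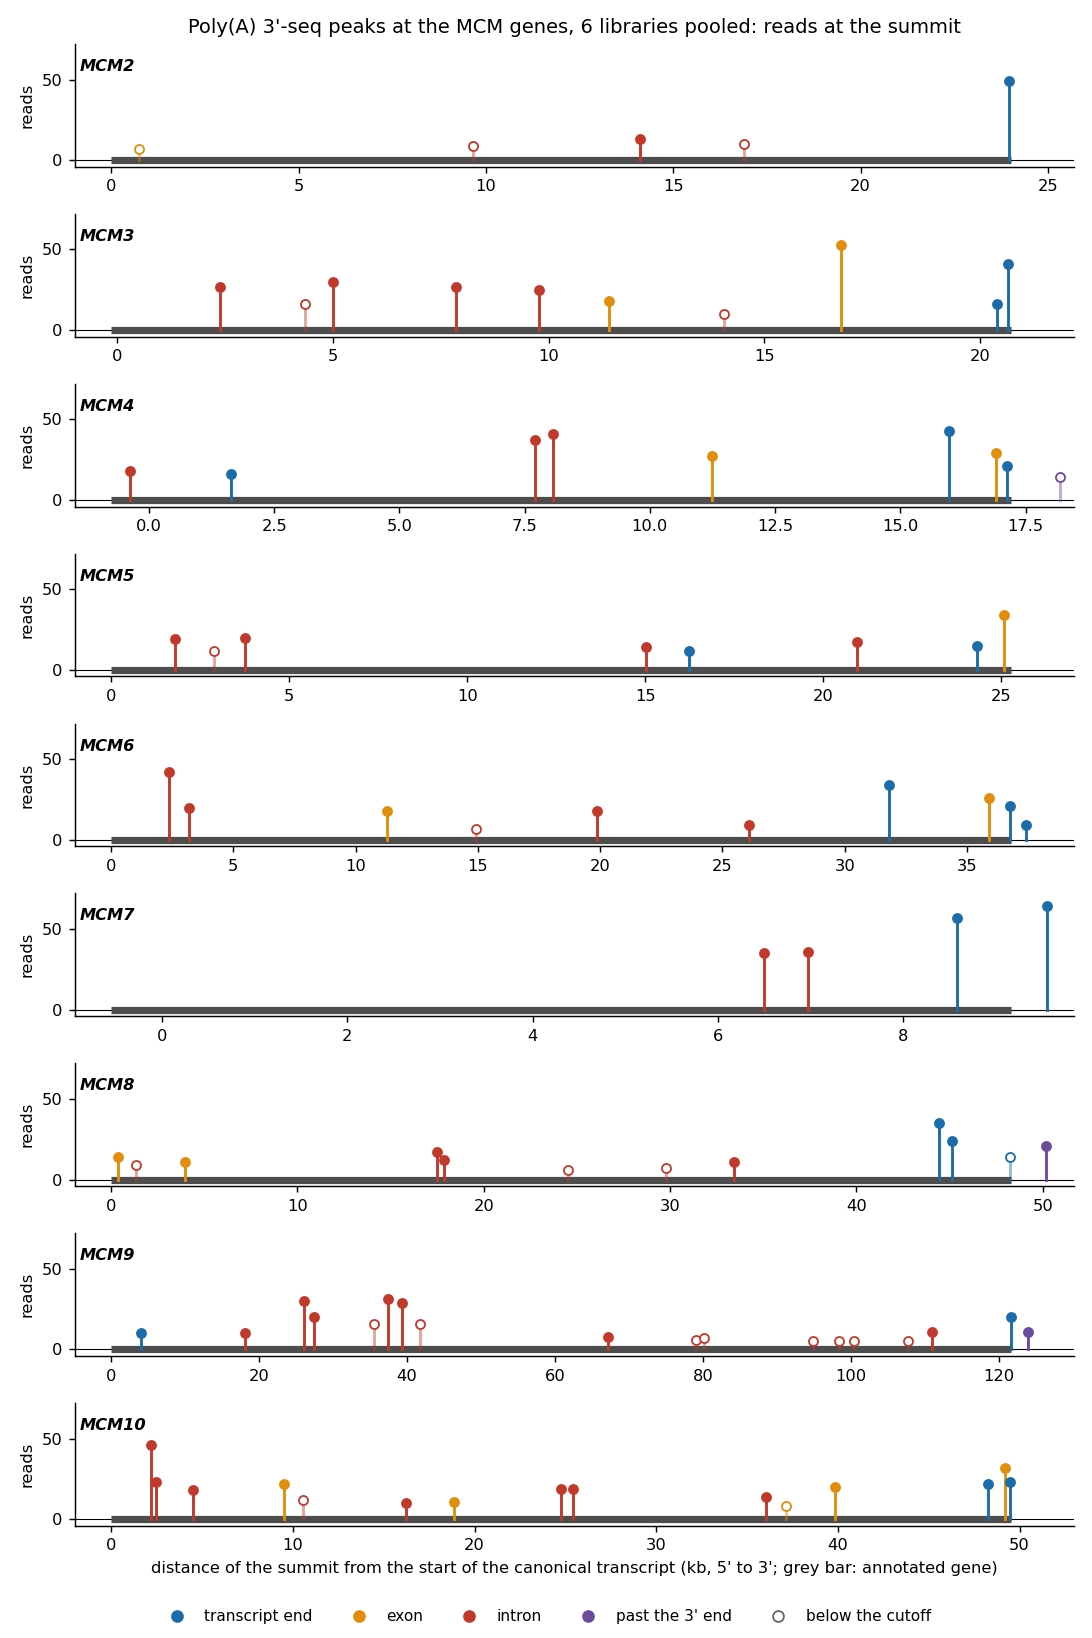
Peaks of the 9 MCM genes. The horizontal axis is the distance of the summit from the start of the canonical transcript (kb, drawn 5′ to 3′), the vertical axis is the reads at the summit over the pooled libraries, colours give the class, open points are peaks with −log10 q below 5, and grey bars are the annotated genes. Peaks near the right end of each bar reach 20 to 64 reads, and MCM6 and MCM10 have intronic peaks of 42 and 46 reads close to their starts.

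To show what reads at the annotated ends looked like, the last 30 bases up to the 3′ edge are printed for peaks at the canonical ends of 7 genes and for the MCM9 peak just past its end, read 5′ to 3′ on the gene's strand. Capitals mark PAS hexamers, and hexamers that overlap run together. The 12 hexamers searched were AAGAAA or AATAAA or AATACA or AATAGA or AATATA or AATGAA or ACTAAA or AGTAAA or ATTAAA or CATAAA or GATAAA or TATAAA. The MCM3 peak, whose AATAAA began 37 bp before the edge, and the MCM8 peak, which lay below the cutoff, held none in these bases. The MCM4 sequence is not printed.
MCM2, chr3:127622428-127622457, plus strand: aAATATAAAcgctggtatctgttggcttcc
MCM3, chr6:52264006-52264035, minus strand: ttagccatttcgtacacatggtcttaatag
MCM5, chr22:35425411-35425440, plus strand: AATACAAGAAAgcttggtgcatccgcctgg
MCM6, chr2:135839621-135839650, minus strand: AATAAAtggcaaacATTAAAaacaagagtg
MCM7, chr7:100092683-100092712, minus strand: ttatgctatttcatccactcAGTAAAttac
MCM8, chr20:5998929-5998958, plus strand: gttacttaccatgtgtatacataacactga
MCM9, chr6:118813330-118813359, minus strand: agacataTATAAAcaatgatTATAAAattt
MCM10, chr10:13211083-13211112, plus strand: ttaaAATAAAtttaaaacataattgtcact

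The next sequences are from inside the genes. They are shown because they are the tallest intronic peaks of MCM6 and MCM10, which hold no hexamer in these 30 bases, an MCM3, an MCM8 and an MCM9 intronic peak that do, and the MCM6 peak at an annotated end inside its coding sequence. The MCM9 intronic peak lies inside ASF1A, a gene on the opposite strand, and also has a hexamer on that strand, so its reads may not come from MCM9.
MCM6 intron 1, chr2:135873987-135874016, minus strand: tgtcttacaaaaacaccccagtcatcatcc
MCM10 intron 1, chr10:13163811-13163840, plus strand: gttgagccactgtacctagccaaccccaat
MCM3 intron 9, chr6:52274919-52274948, minus strand: ttaaaAGTAAAATAAAATAAAATAAAtgat
MCM8 intron 10, chr20:5968568-5968597, plus strand: cagtgtcCATAAATAAAgttctattggaac
MCM9 intron 8, chr6:118895841-118895870, minus strand: ttagagATTAAAaactagtttttaaaatga
MCM6 exon 16, chr2:135844574-135844603, minus strand: aagaactTATAAATAAAaaaagaatcatag

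Another pair shows the sequence that can prime a poly(A) library without a tail, the 30 bases just after the 3′ edge of a peak in MCM9 intron 13 and of a peak in MCM9 intron 8.
MCM9 intron 13, after chr6:118824063, minus strand: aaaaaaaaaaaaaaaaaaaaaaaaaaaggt
MCM9 intron 8, after chr6:118867890, minus strand: aaaagaaaaagaaaaagaaaaaagaaatat

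Among the ring subunits, MCM2 had the simplest pattern. MCM2 (ENSG00000073111, chr3:127598410-127622436), whose N terminus also binds histones, carried 1 transcript-end peak of 49 reads (chr3:127622313-127622457, fold 17.7, −log10 q 47.2). Its 3′ edge lay 21 bp past the canonical end, and an AATAAA began 34 bp before the edge. The only intronic peak past the cutoff had 13 reads and no hexamer (intron 8, chr3:127612511-127612611), 0.265 times the height of the end. MCM2 thus held 0.0518 intronic peaks per kb of intron, the lowest value of the family. A lncRNA on the opposite strand, ENSG00000285600, covers the MCM2 end, and the list cannot say which strand the reads came from.

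MCM3 (ENSG00000112118, chr6:52264014-52284881) had its tallest peak inside the coding sequence. The end of the gene carried peaks of 41 reads (chr6:52264006-52264137), with the edge 9 bp past the canonical end, and of 16 reads (chr6:52264267-52264367), 252 bp before it. The tallest peak, with 53 reads, lay in coding exon 14 (chr6:52267878-52268050), after 84.9% of the coding bases, with AAGAAA 76 bp before its edge and no AATAAA. Intronic peaks were of similar height throughout the 5′ part of the gene: 30 reads in intron 4 (chr6:52279588-52280115), 27 in intron 3 (chr6:52282300-52282426), 27 in intron 8 (chr6:52276838-52276944) and 25 in intron 9. Of these 4, those in introns 3 and 9 had an AATAAA within 20 bp of the edge. The 30-read peak was 528 bp wide. Its summit lay in intron 4, but its 3′ edge lay in the next coding exon, after 22.4% of the coding bases.

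MCM4 (ENSG00000104738, chr8:47960185-47978160), the subunit that is a main target of the DDK kinase during origin firing, had 3 transcript-end peaks. The tallest, with 43 reads (chr8:47976821-47977270), ended 890 bp before the canonical end in the last exon, and a 21-read peak (chr8:47978050-47978155) ended 5 bp before it. An exonic peak of 29 reads stood between them, 231 bp before the end. The heights therefore fell towards the annotated end. Another transcript-end peak, 16 reads at chr8:47962526-47962794 in canonical intron 5, ended 388 bp past the end of a short isoform. Intron 10 held a pair of peaks of 41 reads (chr8:47968937-47969068) and 37 reads (chr8:47968556-47968735), with ATTAAA 24 bp and AATAAA 20 bp before their edges. These reached 0.953 times the tallest end.

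MCM5 (ENSG00000100297, chr22:35400134-35425431), which with MCM2 forms the gate through which the ring opens, shows a limit of the classes. Its transcript-end peaks had 15 reads (chr22:35424401-35424508), 923 bp before the canonical end and 7 bp past the end of another protein-coding transcript, and 12 reads (chr22:35416305-35416411), in exon 11 and 446 bp past the end of a transcript with no annotated coding sequence. Its tallest peak, 34 reads at chr22:35425155-35425440, had its edge 9 bp past the canonical end, but the summit of this wide peak lay 207 bp before that end, so it counted as exonic. By its edge it is the terminal peak of MCM5. Intronic peaks of 20 reads (intron 4, chr22:35403839-35404129) and 19 reads (intron 2, chr22:35401820-35402234) were taller than both transcript-end peaks and shorter than the 34-read peak.

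MCM6 (ENSG00000076003, chr2:135839626-135876443) had an intronic peak above every peak at its ends. The 42-read peak in intron 1 (chr2:135873987-135874292) lay 2.37 kb from the transcript start, after 4.34% of the coding bases, with an AATAAA 68 bp before its edge. A second peak in the same intron had 20 reads (chr2:135873213-135873342). At the 3′ end, peaks of 21 reads (chr2:135839621-135839731) and 9 reads (chr2:135839015-135839114) ended 5 bp and 611 bp past the annotated end, and an exonic peak of 26 reads ended 813 bp before it. The tallest transcript-end peak, 34 reads at chr2:135844574-135844706, lay within coding exon 16, ended 34 bp past the end of a transcript with no annotated coding sequence, and had AATAAA 19 bp before its edge. The AATAAA of that site is in the sequence printed above.

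MCM7 (ENSG00000166508, chr7:100092233-100101940) is the shortest of the 9 genes at 9.71 kb and had the tallest transcript-end peaks. A 57-read peak (chr7:100092683-100092886) ended 45 bp past the canonical end, with AGTAAA 10 bp before its edge. A 64-read peak (chr7:100091793-100092451) ended 440 bp past the annotated gene. This second peak is 659 bp wide and also covers the end of COPS6, a COP9 signalosome subunit gene that runs towards MCM7 on the other strand. No hexamer stood before its edge on either strand, and how the reads divide between both genes was not tested. The intronic peaks, 36 reads (chr7:100094345-100094721) and 35 reads (chr7:100094834-100094958), were both in intron 12. The local background at MCM7 was about 10 reads (median 10.2), against a median of 1.83 at MCM2, so that the tallest MCM7 end ranked at percentile 97.5 of detected genes by reads and at 10.0 by fold enrichment.

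**Figure D2:**
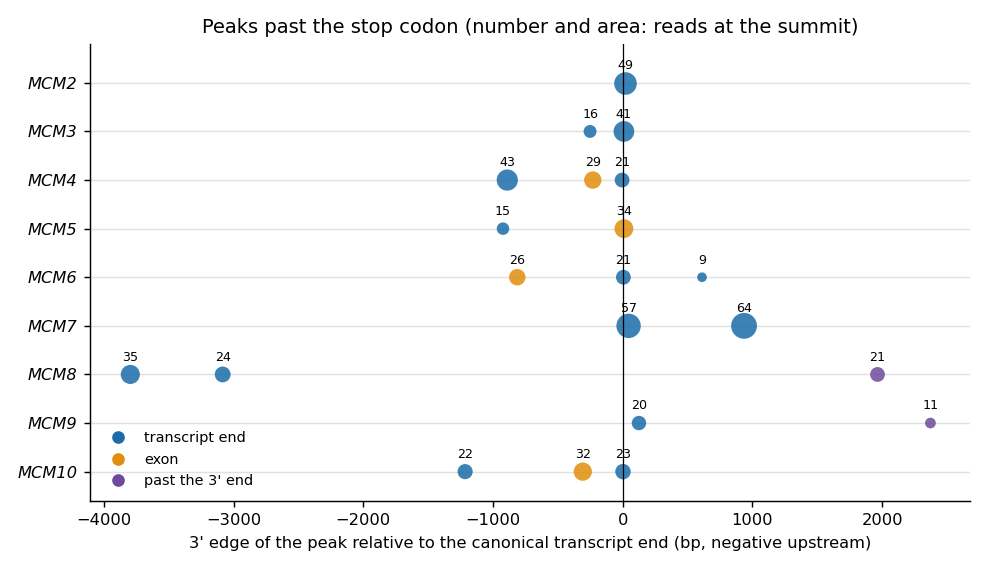
Peaks with a 3′ edge past the stop codon of each MCM gene. The horizontal axis is the distance of the edge from the canonical transcript end (bp, negative upstream), each row is a gene, and the number and the area of a point give the reads at the summit. Edges lie within 25 bp of the end in MCM2, MCM3, MCM4, MCM5, MCM6 and MCM10, and the MCM8 peaks lie 3796 and 3084 bp before it and 1964 bp past it.

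Outside the ring, MCM8 (ENSG00000125885, chr20:5950652-5998977) had transcript-end peaks of 35 reads (chr20:5994509-5995181) and 24 reads (chr20:5995760-5995893) that ended 3796 and 3084 bp before the canonical end. Their edges lay 25 bp before and 687 bp past the end of a shorter protein-coding transcript. The peak at the canonical end had 14 reads with −log10 q of 3.72, below the cutoff, and an edge 19 bp before the end. Past the gene, a 21-read peak (chr20:6000596-6000941) ended 1964 bp downstream with AATAAA 19 bp before its edge. MCM8-AS1 on the other strand and a readthrough gene on the same strand (ENSG00000286235) also cover these places, and another gene on the same strand, ENSG00000275632, covers the 21-read peak. The tallest intronic peaks had 17 reads (chr20:5968074-5968238) and 12 reads (chr20:5968495-5968597), both in intron 10 and both with AATAAA within 30 bp.

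MCM9 (ENSG00000111877, chr6:118813442-118935162) is the longest gene at 121.7 kb, and had 18 peaks, of which 10 passed the cutoff. Its terminal peak had 20 reads (chr6:118813330-118813566) and ended 125 bp past the canonical end, and an 11-read peak followed 2372 bp past it (chr6:118811083-118811185). The other transcript-end peak, 10 reads at chr6:118931095-118931194, stood near a transcript whose 3′ end is marked incomplete in the annotation. The tallest intronic peaks, 31 reads (chr6:118897621-118897932) and 30 reads (chr6:118908983-118909347), were in intron 8, in the part that also holds the whole of ASF1A, a histone chaperone gene on the opposite strand. In all, 4 of the 7 intronic peaks of MCM9 lay inside ASF1A, and the 30-read peak spans the ASF1A 3′ end. The remaining 3 had 8 to 11 reads, and 2 of these stood before the A-rich sequences printed above, with 25 and 21 A in 25 bases. Without the peaks inside ASF1A, the tallest MCM9 intronic peak was lower than its terminal peak.

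MCM10 (ENSG00000065328, chr10:13161558-13211110) had 13 peaks, the most of the family. Its tallest was the 46-read peak in intron 1 (chr10:13163581-13163840), 2.20 kb from the start and before any coding base, followed in the same intron by a 23-read peak (chr10:13163955-13164085). No hexamer stood within 100 bp of either edge. At the end of the gene, the transcript-end peaks had 23 reads (chr10:13211003-13211112), 2 bp past the canonical end with AATAAA 26 bp before the edge, and 22 reads (chr10:13209742-13209895), 1215 bp before it. An exonic peak of 32 reads ended 308 bp before the end with AATAAA 31 bp before its edge. The tallest intronic peak thus stood at 2 times the tallest transcript-end peak, a ratio that leaves out the taller 32-read exonic peak near the end.

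Across the family, most genes had more than 1 peak past the stop codon, and not all were within the annotated last exon. The most distal edge lay beyond the canonical end by 611 bp in MCM6, 935 bp in MCM7, 1964 bp in MCM8 and 2372 bp in MCM9. There were 21 such peaks, and 8 of 9 genes had at least 2, against 71.7% of detected genes. In 3 of these 8 genes (MCM3, MCM5 and MCM7) the most distal peak was the tallest, against 32.9% of all genes with at least 2. The most distal MCM7 peak also covers the end of COPS6, and other genes on both strands cover the most distal MCM8 peak. Which gene the reads of these peaks belong to was not tested. In MCM4, MCM6, MCM8, MCM9 and MCM10 a more proximal peak was taller. A peak edge lay within 25 bp of the canonical end in 6 of 9 genes, all but MCM7, MCM8 and MCM9, against 62.5% of detected genes (the limit of 25 bp was set after the values were seen). At 50 bp MCM7 joined them, against 66.9%. A peak past the 3′ end was found in MCM8 and MCM9, 2 of 9 genes, against 31.6%. With 9 genes, none of these counts is read as a difference from all genes.

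By height, the tallest transcript-end peaks ordered the genes as MCM7 (64 reads), MCM2 (49), MCM4 (43), MCM3 (41), MCM8 (35), MCM6 (34), MCM10 (23), MCM9 (20) and MCM5 (15, or 34 if its terminal peak is taken by its edge). Detected genes had a median of 25 with quartiles of 17 and 36, so that by reads MCM2, MCM3, MCM4 and MCM7 lay above the upper quartile and MCM5 below the lower. The ranking by fold enrichment differed: MCM2 stood at percentile 93.0, MCM6 at 91.8, MCM3 at 71.4, MCM4 at 53.1, MCM5 at 13.2 and MCM7 at 10.0. The median percentile of the 9 genes was 73.9 by reads and 59.5 by fold enrichment. No spread between libraries can be given, so neighbours in this order cannot be said to differ. The tallest intronic peak exceeded the tallest transcript-end peak in 4 of 9 genes (MCM5, MCM6, MCM9 and MCM10), against 34.7% of detected genes with an intronic peak. In MCM5 and MCM9 this rests on the class of the wide terminal peak and on the peaks inside ASF1A. In MCM6 and MCM10 the tallest peaks past the stop codon (26 and 32 reads) were classed as exonic. The tallest intronic peaks of MCM6 and MCM10 (42 and 46 reads) stood above these too.

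**Figure D3:**
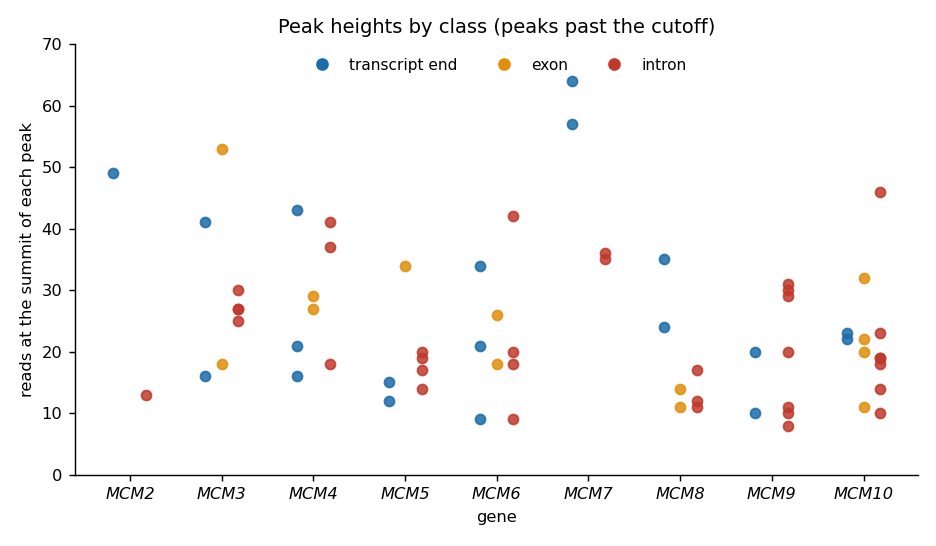
Heights of the peaks by class. Each point is a peak with −log10 q of at least 5, the horizontal axis is the gene and the vertical axis is the reads at the summit over the pooled libraries. Transcript-end peaks stand highest in MCM2, MCM4, MCM7 and MCM8, exonic peaks in MCM3 (53 reads) and MCM5 (34 reads), and intronic peaks in MCM6 (42 reads), MCM9 (31 reads) and MCM10 (46 reads).

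Every MCM gene had at least 1 intronic peak, against 79.7% of detected genes with an intron. Per kb of intron, the values were 0.421 in MCM7, 0.369 in MCM4, 0.232 in MCM3, 0.222 in MCM5, 0.159 in MCM10, 0.122 in MCM6, 0.0738 in MCM8, 0.0641 in MCM9 and 0.0518 in MCM2. The median over detected genes was 0.0955 and their upper quartile 0.157, so MCM3, MCM4, MCM5, MCM7 and MCM10 lay above it. The counts behind the high values are small: MCM7 had 2 intronic peaks in 4.75 kb of intron, with a 95% Poisson interval of 0.0510 to 1.52 per kb. Summed, MCM2 to MCM7 had 18 intronic peaks in 100.1 kb (0.180 per kb), MCM8 to MCM10 had 17 in 194 kb (0.0876 per kb), and all detected genes together had 0.0862 per kb. The MCM9 value and the MCM8 to MCM10 sum include the 4 peaks inside ASF1A on the opposite strand. Against detected genes of like length (in 10 equal bins), 5 of 9 genes exceeded the upper quartile in number. The share of all detected genes that did so was not computed, so this count is not read as a difference. The margins were small: 4 peaks against an upper quartile of 3 in MCM3 and MCM5, 3 against 2 in MCM4, 2 against 1 in MCM7 and 7 against 6 in MCM10. MCM10 had 7 against a median of 4 in its bin, MCM4 had 3 against 1, MCM9 had 7 against 12 and MCM2 had 1 against 2. The MCM4 count includes a peak upstream of its canonical start.

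**Figure D4:**
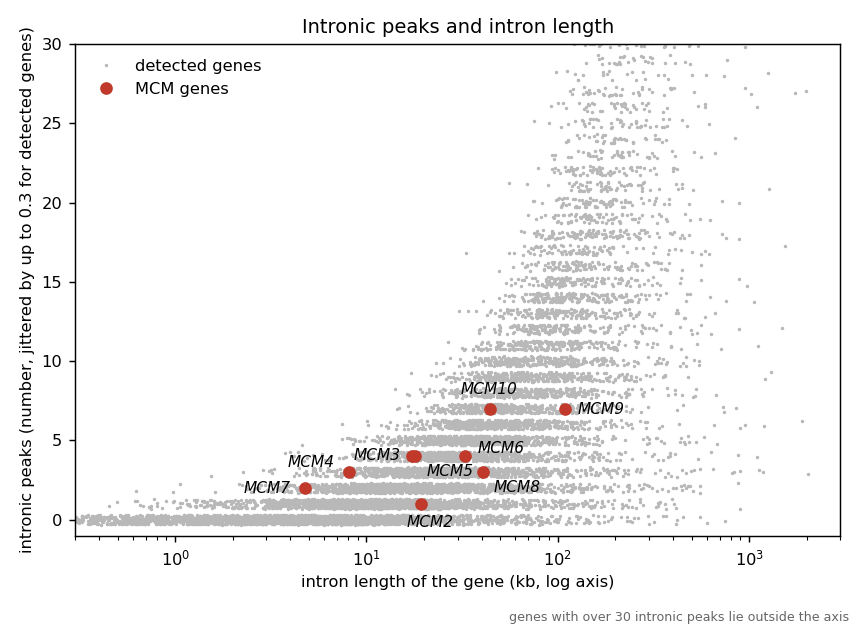
Intronic peaks against intron length. Each grey point is a detected protein-coding gene with an intron, red points are the MCM genes, the horizontal axis is the summed intron length (kb, log axis) and the vertical axis is the number of intronic peaks with −log10 q of at least 5. MCM7, MCM4, MCM3 and MCM5 lie in the upper part of the points at their intron length, while MCM9, with 7 peaks in 109 kb, and MCM2, with 1 in 19.3 kb, lie in the lower part.

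By position, 24 of the 35 intronic peaks (68.6%, 95% Wilson interval 52.0 to 81.4) had less than 50% of the coding bases upstream, against 71.8% of intronic peaks in all detected genes. The first intron held 4 of the 35 (11.4%, 4.54 to 26.0), a pair each in MCM6 and MCM10, against 28.4% over all detected genes. First introns held 4.01% of the intronic bases of the MCM genes, against 24.6% over all detected genes. In both groups their share of the peaks was thus above their share of the bases, from only 4 peaks in the MCM genes. Intervals on shares cover counting error only.

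A PAS hexamer stood in the 100 bp before the 3′ edge of 46 of the 69 peaks (66.7%, 54.9 to 76.6), against 62.6% of 129416 peak assignments over all protein-coding genes. The share was 84.2% (16 of 19, 62.4 to 94.5) at transcript ends, 53.8% (7 of 13, 29.1 to 76.8) in exons and 60.0% (21 of 35, 43.6 to 74.4) in introns, against 79.2%, 68.7% and 57.0%. With 12 hexamers a match by composition is common, and the opposite strand of the same peaks had one in 44.9% (33.8 to 56.6). The opposite-strand window was the 100 bp before the other edge of the peak. For the intronic peaks alone the share was 51.4% (18 of 35, 35.6 to 67.0) on the opposite strand, against 38.1% over all genes. This interval overlaps that of the gene's own strand, but both come from the same 35 peaks, so the overlap does not measure their difference. AATAAA alone separated the strands more: it stood before 40.6% of MCM peaks (29.8 to 52.4) on the gene's strand and 8.70% (4.05 to 17.7) on the other, against 30.5% and 12.9% over all genes. In introns AATAAA stood before 12 of 35 peaks (34.3%, 20.8 to 50.8), against 26.3%. By gene, the intronic peaks of MCM4 (3 of 3), MCM6 (4 of 4) and MCM8 (3 of 3) all had a hexamer, whereas those of MCM2 (0 of 1), MCM5 (1 of 4) and MCM10 (2 of 7) mostly did not. The nearest hexamer of the MCM6 intron 1 peaks lay 68 and 79 bp before the edge. In a window of 40 bp the share was 58.0% (40 of 69) over all MCM peaks and 48.6% (17 of 35) in introns.

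Reads primed on A-rich genomic sequence would begin just before a run of A. Such a run, with at least 22 A in 25 bases within 50 bp past the edge, followed 1 of 35 intronic MCM peaks (2.86%, 0.506 to 14.5), against 5.55% of intronic peaks over all genes. With 50 bp on either side of the edge searched, the MCM count was 3 of 35 (8.57%, 2.96 to 22.4), with 2 peaks in MCM9 and the intron 14 peak of MCM5. The share over all genes was not computed for this wider window, so 8.57% cannot be set against 5.55%. With at least 18 A past the edge the counts were 2 of 35 (5.71%, 1.58 to 18.6) against 27.0%, and both were in MCM9. No MCM peak at a transcript end or in an exon had 18 A past its edge.

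The genes that act with the ring were described in the same way. Of 50 other replication genes in 4 lists, 47 had a transcript-end peak, against 64% of all protein-coding genes: 9 of 10 origin licensing genes, 12 of 12 genes of CMG assembly and activation, 26 of 27 replisome genes and 0 of 1 MCM8-MCM9 partners. The tallest transcript-end peaks were at FEN1, the flap endonuclease of Okazaki fragment processing (91 reads), DONSON, which helps to assemble CMG (68 reads), and POLE3, a small subunit of DNA polymerase epsilon (66 reads). No transcript-end peak passed the cutoff at ORC1, the largest subunit of the origin recognition complex, POLD4, the smallest subunit of DNA polymerase delta, or HROB, which loads the MCM8-MCM9 helicase; POLD4 and HROB had one below the cutoff. ORC1 and HROB each had 3 intronic peaks, with 26 and 13 reads at the tallest. The median tallest transcript-end peak was 35 reads in the 9 MCM genes (42 in MCM2 to MCM7, 27.5 in MCM8 and MCM9, and 23 in MCM10), 35 in the other replication genes and 25 over all detected genes. The median density was 0.159 intronic peaks per kb in the 9 MCM genes and 0.105 in the other replication genes that were detected.

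**Figure D5:**
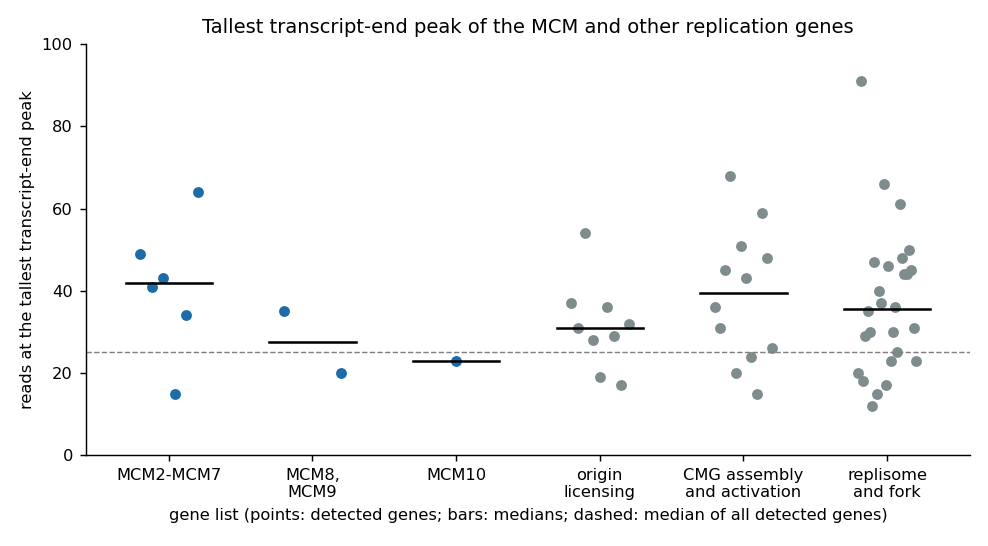
Tallest transcript-end peaks of replication genes. Points are detected genes, bars are list medians, the dashed line is the median of all detected genes (25 reads) and the vertical axis is the reads at the summit. The ring genes span 15 to 64 reads with a median of 42, and the other lists overlap this range.

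The 4000 bp limit of the rule did not decide a peak closely. The last summit inside it was that of MCM9, 2304 bp past the gene with 11 reads, and the nearest outside was 4582 bp past MCM3 with 12 reads.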

How the data were processed

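Poly(A) 3′-seq of IMR-32 cells comprised 6 libraries in 3 groups of 2. Per the study's methods and the submitters' processing notes, the authors mapped reads to GRCh38 with STAR (2.5.1b), keeping reads with up to 20 placements, merged the samples, and ran MACS2 (2.1.1) with reads extended to 100 bp and no control. The deposited list gives a fold enrichment (the ratio of pileup plus 1 to background plus 1), −log10 p, −log10 q and a summit offset per peak. The deposited score is a rounded form of −log10 q and was not used. No column gives a library, so no test between groups could be made and depth per library is unknown.

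Pileup and background were solved here from fold and the Poisson tail (largest misfit 0.000172 in −log10 p) and checked on simulated peaks. Peaks were classed against Gencode release 44 (the study used an older release), over the 20046 protein-coding genes. "Detected" means at least 1 transcript-end peak with −log10 q of at least 5. A peak over several genes counts for each. Sequences were read from GRCh38 on the gene's strand, with none printed from chromosome 8, and PAS distances run from the motif's first base to the edge. Python 3.11.15, numpy 2.4.6, pandas 2.3.3, scipy 1.17.1 and matplotlib 3.10.9 were used. Intervals are 95% Wilson or exact Poisson.

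The members, lists and alternatives were chosen with earlier results of these data known. Named by rule were all transcript-end peaks past the cutoff, the 2 tallest intronic peaks (ties kept) and the tallest peak past the end of each MCM gene, and of the other replication genes the 3 with the tallest transcript-end peak and those with none. Other peaks, mainly exonic ones, and the markers given with values were named after their values were seen. Another marker of the list is not reported here.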

Additional observations from a re-analysis of the deposited data

How the results depend on the processing

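No paired analysis was possible because the peaks carry no value per library, and for the same reason no replicate could be left out. At a stricter cutoff, −log10 q of at least 20, the MCM genes had 16 peaks in place of 69, 5 of them intronic and 7 at transcript ends; the share with a hexamer was 87.5% over all and 80.0% in introns, the median density over the 9 genes was 0 per kb, and 28 in place of 47 other replication genes had a transcript-end peak (29.5% of all protein-coding genes did). With no cutoff there were 53 intronic peaks, and with the class taken by the 3′ edge there were 32. Transcript-end peaks numbered 8 with canonical transcripts only and 11 with a window of 100 bp either side, because fewer annotated ends or bases count. Over all MCM peaks the hexamer share was 40.6% for AATAAA alone, 50.7% for AATAAA or ATTAAA and 40.6% in a window that ends at the summit; in introns it was 34.3% for AATAAA alone. All 9 genes kept a transcript-end peak with no cutoff, by the 3′ edge (an alternative added after the data were seen) and with incomplete ends left out (likewise), 8 with the narrow window, 7 with canonical ends only and 6 with −log10 q of at least 20. Leaving out the MCM9 peaks inside ASF1A (also added later) gave 54.8% of intronic peaks with a hexamer. Merging close peaks, leaving out places with genes on both strands and leaving out peaks before an A stretch moved no count by over 1.5 times. The density of a single gene left its Poisson interval in 12 cases, 8 of them at the stricter cutoff and lower. In 3 cases this came from counting only peaks with a hexamer: MCM2 fell to 0, MCM5 from 0.222 to 0.0555 and MCM10 from 0.159 to 0.0454 per kb. The place of MCM5 and MCM10 above the upper quartile of detected genes thus rests on peaks without a hexamer. The density over detected genes was not computed for that setting. Few peaks per gene, saturation of the pileup and the missing strand limit what these values show.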

Other observations

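MCM7 is also the host gene of the miR-106b, miR-93 and miR-25 cluster, whose hairpins lie in an intron of the gene. By RefSeq positions on GRCh38.p14, the MIR106B hairpin (chr7:100093993-100094074) began 271 bp after the 3′ edge of the 36-read peak in intron 12, and the edge of the 57-read peak lay 960 bp past the start of the MIR25 hairpin (chr7:100093560-100093643), the last of the cluster. Whether the hairpins lie in the same intron as the 36-read peak was not examined. No MCM7 peak of the list lay between the hairpins.

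MCM8 had an exonic peak of 14 reads in exon 1, 0.347 kb from its start (chr20:5950961-5951066), with AATAAA 16 bp before the edge and before any coding base. MCM4 had an 18-read peak 0.378 kb upstream of its canonical start, within the intron of a longer transcript, with AATAAA 35 bp before its edge. Both were chosen after their values were seen, and the strand of their reads is not given by the list.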
